A study of Drosophila melanogaster with 312 samples.

Results

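The small heat shock proteins, the fly Hsp90 protein and their co-chaperones were followed through an artificial selection experiment on night sleep in Drosophila melanogaster. The set held 9 genes, chosen by symbol: Hsp22, Hsp23, Hsp26, Hsp27, Hsp67Ba, Hsp67Bc, Hsp83, DnaJ-1 and stv. Of these, 8 were present among the 13212 genes with normalized read counts, and Hsp22 was present only among the 17478 genes with raw counts.

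Small heat shock proteins bind unfolding proteins and hold them, without using ATP, until other chaperones can refold them or they are degraded. The Hsp90 protein, encoded by Hsp83, completes the folding of kinases, hormone receptors and other client proteins. J proteins such as DnaJ-1 deliver clients to Hsp70 and start its ATP cycle, and starvin, encoded by stv, is a BAG-domain co-chaperone of Hsp70 that works in muscle upkeep and chaperone-assisted autophagy. Heat and other stresses induce these genes through the heat shock factor Hsf, but several are also transcribed without stress. In the ovary, Hsp26, Hsp27 and Hsp83 are transcribed in nurse cells as part of oogenesis.

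The libraries came from 6 populations of one outbred stock that had been made by crossing inbred wild-derived lines. Short 1 and short 2 were bred from the shortest night sleepers, long 1 and long 2 from the longest, and control 1 and control 2 from parents taken without regard to sleep. RNA was taken from whole virgin flies that had not been used as parents, at generation 0 and at generations 2 to 13. The flies were frozen at noon after several days of sleep recording. Each of the 13 generations gave 2 pools of 10 flies per sex and population, which made 52 libraries per selection scheme and sex.

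Depth was high in every group. Female libraries held 35383072 to 71564340 counted reads in the short populations, 34242873 to 108458644 in the long populations and 34675057 to 109389826 in the controls. Male libraries held 33612805 to 77116542 in the short populations, 31539064 to 66590116 in the long populations and 34503798 to 90883614 in the controls. Levels are given as normalized read counts, the reads of a gene divided by the size factor of its library. In RNA from whole flies, fewer cells of a type and less RNA per cell cannot be told apart.

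The libraries were checked with the summed level of 10 ovary and female fat body genes and of 10 testis and accessory gland genes. On these sums 4 libraries, singled out with earlier results of these data known, carried RNA of genes typical of the other sex. The ovary and fat body sum was 508237 in pool 2 of generation 8 long 1 males, 233990 in pool 2 of generation 0 short 2 males and 21692 in pool 1 of generation 2 short 2 males, against a median of 1747 over all male libraries and 457880 over all female libraries. The testis and accessory gland sum was 3176 in pool 1 of generation 2 control 2 females, against a median of 33.4 over the female libraries and at most 855 in the other 155.

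Another library, pool 2 of generation 5 short 1 males, also reached 234355 on the ovary and fat body sum. Of this, 233952 came from the 3 yolk protein genes of the list, which fat body and ovary express, against a median of 1274 over the males outside these libraries. The other 7 genes of the list summed to 403 in it, against a median of 446 in those males, and to 108791 in the long 1 male library. Its levels of Hsp26 (3891) and Hsp27 (2753) were in the range of the other males.

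For the genes described here, 3 of these libraries, all male, stood apart. The long 1 male library had 44369 for Hsp26, 28629 for Hsp27 and 96040 for Hsp83, against 4007, 2593 and 47714 in the other pool of that population and generation. The 2 short 2 male libraries had 12980 and 15204 for Hsp26, above the 11671 that was the highest of the 153 other male libraries. The control 2 female library lay inside the range of the other females for all 8 genes. The main results are given with all libraries kept, and without the 4 where that changed a call or moved a value. Leaving out that short 1 male library as well, an alternative chosen after the data were seen, kept the counts found without the 4, with 8 genes called across sex and 7 of 8 across male generations.

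All 9 genes lie on chromosome arm 3L (positions from the BDGP6.54 annotation of the release 6 genome, 1-based). The 6 small heat shock genes of the set lie within 14.2 kb of cytological region 67B, from 9371511 to 9385694. In order they are Hsp67Bc (FBgn0001229, 9371511 to 9372497, minus strand), Hsp22 (FBgn0001223, 9372931 to 9374964, plus), Hsp26 (FBgn0001225, 9376418 to 9377427, minus), Hsp67Ba (FBgn0001227, 9377802 to 9379534, minus), Hsp23 (FBgn0001224, 9381882 to 9382765, plus) and Hsp27 (FBgn0001226, 9384063 to 9385694, plus). The other 3 lie apart from this cluster and from each other. Hsp83 (FBgn0001233) spans 3192969 to 3197059 on the plus strand, DnaJ-1 (FBgn0263106) 5750029 to 5752189 on the minus strand and stv (FBgn0086708) 13477541 to 13483515 on the plus strand.

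Overlapping annotations limit some of the counts. Hsp22, a small heat shock protein of mitochondria, had 0 counts in every library, out of 13791658261 counted reads. In all, 756 of the 17478 genes of the raw table were at 0 throughout. Every exon of Hsp22 is also covered by exons of its same-strand neighbour Hsp67Bb (FBgn0001228, 9372722 to 9374964), and how reads falling in both genes were treated is not given in the sources used here. A count of 0, which would otherwise allow at most 0.00022 CPM over all libraries together (a floor of 3 counts), therefore says nothing on the level of Hsp22. Whether the counts of Hsp67Bb hold reads of Hsp22, or lack the shared reads, is likewise not known. On the opposite strand, Hsp27 overlaps CR43483, Hsp67Ba overlaps asRNA:CR43481 and Hsp83 overlaps CG14966, and the strand setting of the counting is not given, so antisense reads in these 3 genes cannot be told apart from their own. The other 5 overlap no annotated gene.

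Levels were first compared between the sexes. Hsp26, Hsp27, Hsp83 and DnaJ-1 were higher in females, and Hsp23, stv, Hsp67Ba and Hsp67Bc were higher in males. All 8 genes passed the test across sex (edgeR quasi-likelihood test, Benjamini-Hochberg adjusted p under 0.001), as did 98.3% of all genes tested, so the passing itself sets none of them apart. The sizes and directions are what differ among the 8 genes. The combinations of population and generation in which the pools of the sexes lay apart were counted for these genes only. They are given without a share over all genes, so they do not set a gene apart either. Over all genes the median log2 difference, female minus male, was -1.27.

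The nurse cell genes led in females. Hsp26 levels in females had a lowest, median and highest value of 36067, 53648 and 78913, against 3081, 4457 and 44369 in males. The highest male value was that of the long 1 library with female RNA, and without the 3 such male libraries the male range ended at 11671, below every female library. The log2 difference was 3.39 ± 0.05 (SE, adjusted p = 1.636e-183, edgeR), and both female pools lay above both male pools in all 78 combinations of population and generation.

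Hsp27 was likewise higher in females. Its lowest, median and highest levels were 22280, 31321 and 47632 in females, against 1989, 3263 and 28629 in males (4918 at most without the 3 libraries). The log2 difference was 3.22 ± 0.04 (SE, adjusted p = 2.166e-190), with both female pools above both male pools in 77 of 78 combinations.

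Hsp83, the Hsp90 gene, had 91011, 155236 and 197964 normalized counts in females, as lowest, median and highest, against 29943, 45740 and 96040 in males (67791 at most without the 3 libraries). The log2 difference was 1.73 ± 0.02 (SE, adjusted p = 1.178e-209), and the pools of the sexes were separate in all 78 combinations. DnaJ-1 differed least between the sexes, with 9356, 13138 and 26029 in females against 5957, 8616 and 16419 in males, ranges that overlap widely. Its log2 difference was 0.60 ± 0.02 (SE, adjusted p = 2.704e-87), and both female pools lay above both male pools in 74 of 78 combinations.

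The genes that were higher in males included Hsp23, a cytosolic small heat shock protein. Its lowest, median and highest levels were 154, 443 and 3445 in females, against 456, 1827 and 10207 in males. The log2 difference was -1.78 ± 0.08 (SE, adjusted p = 5.992e-64), and both male pools lay above both female pools in 73 of 78 combinations. The ranges overlapped more than those of the other male-high genes.

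For stv, females had 812, 1847 and 5940 as lowest, median and highest, against 3007, 6882 and 17040 in males, a log2 difference of -1.86 ± 0.04 (SE, adjusted p = 3.16e-141). Hsp67Ba had 32.6, 66.8 and 114 in females against 126, 365 and 506 in males, a log2 difference of -2.43 ± 0.03 (SE, adjusted p = 1.548e-203). Hsp67Bc, a small heat shock protein that acts together with starvin in autophagy in flies, had 11.4, 30.4 and 73.7 in females against 53.1, 170 and 372 in males, a log2 difference of -2.44 ± 0.05 (SE, adjusted p = 3.249e-140). For each of these 3 genes both male pools lay above both female pools in all 78 combinations. For Hsp67Ba no male library fell within the female range, with or without the 4 libraries.

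The size of each sex difference depends on the scaling. With TMM factors in place of the deposited size factors the median over all genes was -0.86, and the differences became 3.78 for Hsp26, 3.61 for Hsp27, 2.13 for Hsp83, 1.00 for DnaJ-1, -1.37 for Hsp23, -1.45 for stv, -2.02 for Hsp67Ba and -2.03 for Hsp67Bc. All 8 directions were kept.

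**Figure D1:**
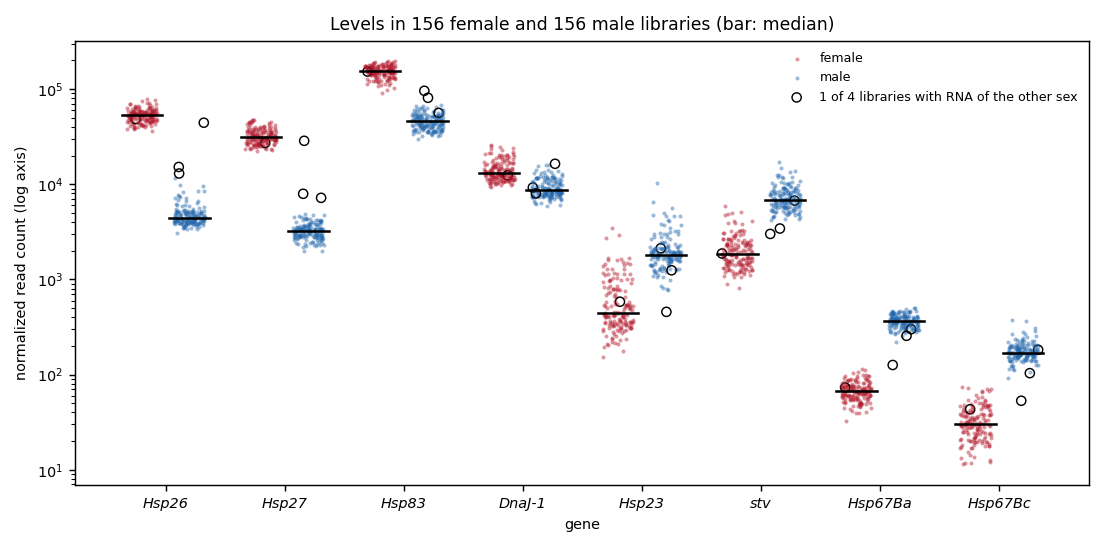
Normalized read counts (log axis) of the 8 genes in each female (left) and male (right) library, with a bar at the median and rings around the 4 libraries that carry RNA of the other sex. Females lie above males for Hsp26, Hsp27 and Hsp83, with 1 male library inside the female range for each, and males lie above females for Hsp67Ba and, with 1 male library inside the female range, for Hsp67Bc, whereas 44 male libraries of stv lie inside the female range, and the ringed male points climb toward the females for Hsp26 and Hsp27.

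Per kilobase of exon, the order of the genes differed between the sexes. In females the median levels per kilobase were 53117 for Hsp26, 52445 for Hsp83, 19192 for Hsp27, 6079 for DnaJ-1, 503 for stv, 502 for Hsp23, 38.6 for Hsp67Ba and 30.8 for Hsp67Bc. The neighbours Hsp26 and Hsp83, and likewise stv and Hsp23, lay within each other's spread. In males the medians per kilobase were 15453 for Hsp83, 4412 for Hsp26, 3987 for DnaJ-1, 2067 for Hsp23, 2000 for Hsp27, 1875 for stv, 210 for Hsp67Ba and 172 for Hsp67Bc. From Hsp26 down to stv the male ranges overlapped, so that only Hsp83 at the top and the 2 Hsp67B genes at the bottom stood clear in the medians.

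Other chaperone genes were grouped into lists, 39 genes in all, of which 38 were tested for sex and all 38 passed, 13 higher and 25 lower in females. These counts are near those of all genes, of which 98.3% passed, 5131 higher and 8548 lower. With TMM factors 36 of the listed genes passed, 14 higher and 22 lower, and Hsc70-5, a mitochondrial Hsp70 cognate, changed sign from a log2 difference of -0.35 to 0.06.

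Of 7 genes for the Hsp90 family and its co-chaperones, 6 were higher in females with either scaling. All 6 listed small heat shock genes outside the set were lower in females with either scaling, 5 of them below the median gene at -1.27, with CG14207 (-0.75) above it. All 7 inducible Hsp70 genes were lower in females, Hsp68 at a log2 difference of -2.64 ± 0.09 (SE), but only 3 lay below the median gene, and with TMM factors Hsp70Aa and Hsp70Ab no longer passed (adjusted p 0.006039 and 0.007146). Hsf itself was higher in females, by 2.09 ± 0.02 (SE) on the log2 scale. The counts of Hsp67Bb, the gene around Hsp22, had a median of 0.889 in females and 182 in males, with the limit from the overlap given above.

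Next, levels were compared between generations. All 7 genes tested in females differed among generations, as did 92.5% of all genes tested, and 5 of 8 did in males, where 86.3% of all genes did (edgeR, 12 generation terms tested together with population as a covariate). Hsp67Bc was below the low-expression limit in females and was not tested there. Female Hsp67Ba was above that limit only in 4 control libraries of generations 12 and 13, at 104 to 114, and so was tested through the libraries in which it was highest; with no filter its adjusted p was 5.734e-05 across generations. A generation and the handling of its flies and libraries cannot be told apart in this design, and the pools of one population share their history, so the p-values measure the spread between libraries. The generations named below are the highest and the lowest of the 13 and were picked by their means. Over all genes tested the median ratio of highest to lowest generation mean was 1.55 in females and 1.57 in males. Whether the libraries of 2 such generations overlapped is given as a description, and the share of all genes without overlap was not counted.

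DnaJ-1 and stv were high in late generations of both sexes. In females, DnaJ-1 averaged 20498 ± 3967 in generation 12 and 11301 ± 966 in generation 3 (SD, n = 12 libraries each), a ratio of 1.81 (adjusted p over all generations 1.329e-38, edgeR). In males it averaged 13218 ± 1965 in generation 11 and 7391 ± 893 in generation 4 (SD, n = 12 each), a ratio of 1.79, and the libraries of these generations did not overlap (adjusted p over all generations 1.346e-25). All 6 populations shared the direction in both sexes.

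The late high values of DnaJ-1 did not form one plateau. Female means were 18200 in generation 9, 19405 in generation 11 and 20498 in generation 12, with 15190 in generation 10 and 15094 in generation 13 between and after them. Male means were 11527 in generation 9, 13218 in generation 11 and 11810 in generation 12, against 9221 in generation 10 and 9469 in generation 13. The high and low values stood in the same generations in females and males.

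The BAG co-chaperone gene stv was also highest in generations 11 and 12. Its female mean was 3267 ± 910 in generation 12 and 1396 ± 225 in generation 3 (SD, n = 12 each), a ratio of 2.34 (adjusted p over all generations 7.185e-18, edgeR). Its male mean was 11163 ± 3055 in generation 11 and 5426 ± 872 in generation 3 (SD, n = 12 each), a ratio of 2.06 (adjusted p 1.692e-21). Libraries of the high and low generations did not overlap in females or in males. Unlike DnaJ-1, the female mean of stv did not drop in generation 10, with 2541 ± 1025 there and 2293 ± 442 in generation 9, and male stv had 8162 ± 1702 and 8364 ± 370 in these generations (SD, n = 12 each). The populations were split behind these means. Control 2 females fell from 2589 and 1691 in the pools of generation 9 to 1582 and 1176 in generation 10, and long 2 females also fell. Control 1 females rose from 2639 and 2737 to 4082 and 3017, as did long 1 and short 1 females, while short 2 females barely moved. In males control 2, long 2 and short 2 fell, and control 1 and short 1 rose.

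Hsp83 ran the other way. Its female mean was 174531 ± 8617 in generation 5 and 120771 ± 8244 in generation 9 (SD, n = 12 each), a ratio of 1.45 with no overlap between libraries (adjusted p over all generations 1.36e-29, edgeR). That ratio was below the 1.55 of the median gene. Generations 11 and 12 were also low in females, at 123583 ± 18238 and 130202 ± 12725 (SD, n = 12 each). In males the lowest means were 36445 ± 2973 in generation 9, 37915 ± 4919 in generation 11 and 38635 ± 3513 in generation 12 (SD, n = 12 each), and the highest was 56373 ± 12256 in generation 0, or 54897 ± 5221 in generation 7 once the libraries with female RNA were left out. The 3 generations in which DnaJ-1 was highest were thus the 3 in which Hsp83 was lowest, in both sexes.

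**Figure D2:**
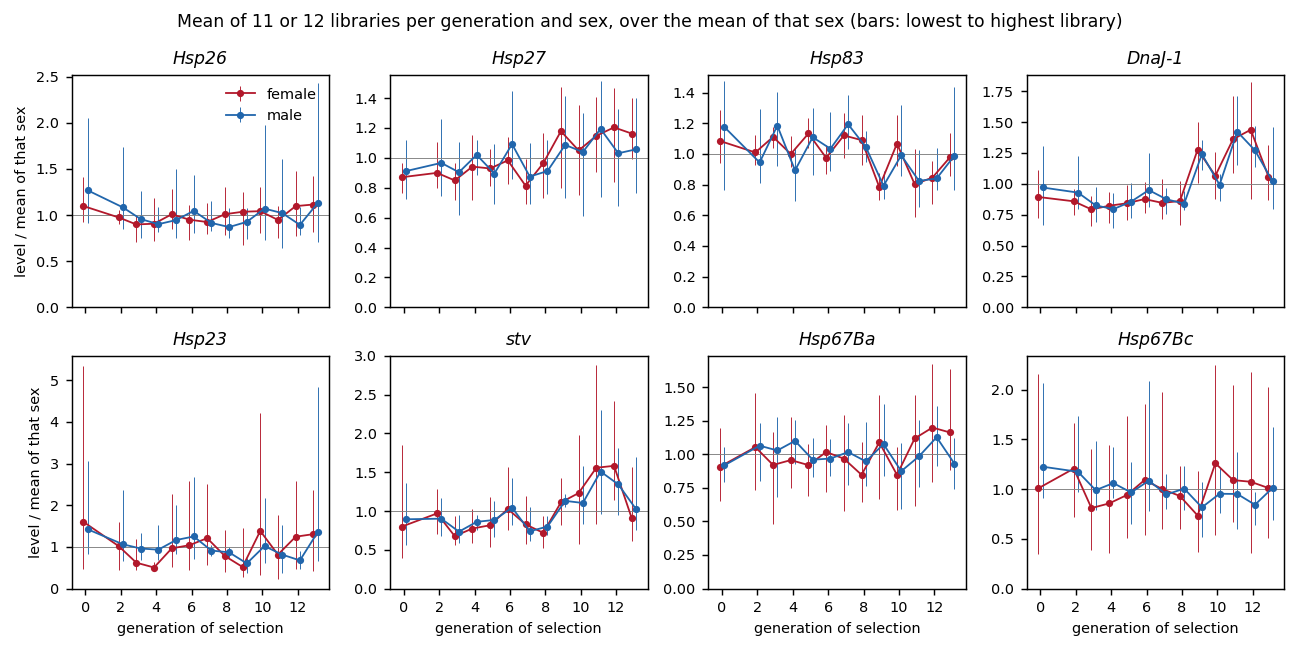
Mean normalized read count of each gene in each generation divided by the mean over all generations of that sex, for females and males without the 4 libraries that carry RNA of the other sex; bars run from the lowest to the highest library. DnaJ-1 and stv lie high and Hsp83 low in generations 9, 11 and 12 in both sexes, and Hsp23 has the longest bars.

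The small heat shock genes of region 67B did not share one generation pattern. Hsp27 averaged 38922 ± 6043 in generation 12 and 26310 ± 3350 in generation 7 in females (SD, n = 12 each), a ratio of 1.48 (adjusted p over all generations 2.467e-18, edgeR). Hsp26 in females moved least, with 59326 ± 8476 in generation 13 and 47815 ± 4345 in generation 3 (SD, n = 12 each), a ratio of 1.24 (adjusted p 0.0001601). Without short 2, long 2 or control 2 the Hsp26 call was lost, with adjusted p values of 0.005751, 0.01535 and 0.01643 (9.284e-07 to 0.02604 over its 14 fits).

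Hsp23 had the widest generation ratio in females. It averaged 1036 ± 1097 in generation 0 and 326 ± 38.6 in generation 4 (SD, n = 12 each), a ratio of 3.18, where the median gene had 1.55 (adjusted p over all generations 7.846e-07, edgeR). In males it averaged 2854 ± 1580 in generation 0 and 1270 ± 208 in generation 9 (SD, n = 12 each), a ratio of 2.25, where the median gene had 1.57 (adjusted p 1.586e-06). With populations as the replicates the female call was lost (adjusted p 0.003871). In both sexes the generation 0 mean was carried by a part of the libraries. Long 1 females had 3445 and 2940 in the 2 pools of generation 0, and long 1 males had 6455 and 2081.

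Hsp67Ba showed a small swing that passed in both sexes, with female means of 81.4 ± 18.5 in generation 12 and 57.5 ± 10.6 in generation 8, and male means of 415 ± 52.8 in generation 12 and 322 ± 59.4 in generation 10 (SD, n = 12 each; adjusted p 3.718e-05 and 2.246e-05, edgeR). In females it was lost with TMM factors (adjusted p 0.00118) and without control 1 (0.00302), and in males without the 29 libraries whose labels mark them as possible back-up pools (0.001621). With populations as the replicates it was lost in both, with adjusted p values of 0.004885 in females and 0.001332 in males. The 3 male genes that did not pass were Hsp26 (adjusted p 0.003939), Hsp27 (0.003267) and Hsp67Bc (0.001204).

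The calls of Hsp27 and Hsp67Bc in males changed with the libraries kept and with the scaling. The highest male means of Hsp26 (7520 ± 11613) and Hsp27 (5103 ± 7415; SD, n = 12 each) were in generation 8 and rested on the single long 1 library. Without the 4 libraries male Hsp27 averaged 3882 ± 759 in generation 11 and 2844 ± 374 in generation 7 (SD, n = 12 each), and the adjusted p was 4.234e-07 for Hsp27 and 4.334e-05 for Hsp67Bc. With all libraries kept both also passed with TMM factors (adjusted p 0.0001616 and 0.0002214), and Hsp27 without short 2 (0.0003835). The highest over the alternatives of each was 0.2706 for Hsp27 and 0.03724 for Hsp67Bc. Hsp26 passed in males without long 1 (adjusted p 0.0002317) and with TMM factors (0.0005975), and reached up to 0.113 in other alternatives.

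Whether generations differed unequally in the 2 sexes was tested as an interaction. None of the 8 genes passed, where 32.5% of all genes did. At an unadjusted p under 0.05 there were 4 of 8, a count given without the share of all genes, so it sets none apart. The smallest adjusted p was 0.004237 for Hsp23, which became 0.0002175 when long 1 was left out and lay at up to 0.1151 in the other alternatives.

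The share of the variation held by each factor, on the log2(normalized count + 1) scale, gave another order, with DnaJ-1 first and Hsp23, which had the widest female ratio, below the median gene in both sexes. Generation held 72.3% of the sum of squares for DnaJ-1 in females and 64.7% in males, and for Hsp83 69.4% in females and 51.2% in males, where the median gene had 37.8% in females and 33.6% in males. Population held little of the variation of either, 4.93% in females and 0.865% in males for DnaJ-1, and 1.86% in females and 1.35% in males for Hsp83. For stv the generation share was 47.0% in females and 56.6% in males. Hsp23 had 23.8% in females and 26.5% in males, and Hsp27 50.8% in females but 9.88% in males with all libraries kept.

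The question of the selection experiment is whether levels moved apart between selected and control populations over the generations. For this a slope on generation was fitted to the controls, and an added slope to each of the 4 selected populations. None of the 7 genes passed in females, where 9.92% of all genes did, and none of the 8 in males, where 5.89% did (edgeR, the 4 added slopes tested together). At an unadjusted p under 0.05 there were 6 of 7 in females and 1 of 8 in males. Both counts are given without the share of all genes at that p, so they do not set these genes apart. DESeq2 also called none of them.

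In females the adjusted p was 0.005541 for Hsp23, 0.005831 for DnaJ-1, 0.006884 for Hsp26, 0.009134 for Hsp67Ba, 0.03328 for Hsp27, 0.04134 for Hsp83 and 0.08295 for stv. Without control 2, Hsp26 passed in females, with an adjusted p of 7.802e-05, the only pass among its 15 fits. In males the smallest was 0.09682, for Hsp67Ba.

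The added slopes of Hsp23 in females were positive in the short and negative in the long populations, but only that of long 1 exceeded 2 times its SE. On the log2 scale per generation they were 0.07 ± 0.05 in short 1, 0.03 ± 0.05 in short 2, -0.14 ± 0.05 in long 1 and -0.05 ± 0.05 in long 2 (SE). Long 1 females started high before selection, with 3445 in a pool of generation 0, where the median female library of that generation had 429. The short minus long mean slope was 0.15 ± 0.04 (SE, adjusted p = 0.01073) in females and -0.02 ± 0.03 (SE, adjusted p = 0.7949) in males, and neither passed. The steepest added slope of Hsp67Ba was also in a long population, -0.07 ± 0.02 in long 2 females (SE, adjusted p = 0.004365). Female Hsp67Ba was tested only through late control libraries, the group in which it was highest. With no filter its adjusted p for the added slopes tested together was 0.01314, in place of 0.009134 (edgeR).

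The difference of the added slopes between the sexes was tested too. None of 8 genes passed, where 7.02% of all genes did. An unadjusted p under 0.05 was found for 5 of 8, again without the share of all genes at that p. The smallest adjusted p was again that of Hsp23 (0.003984). Without the 4 libraries and the short 1 male library the adjusted p rose for each gene (edgeR). It went from 0.02673 to 0.278 for Hsp26, from 0.07467 to 0.6285 for Hsp27, from 0.02739 to 0.1055 for Hsp83 and to 0.006749 for Hsp23.

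The slope of the controls themselves was tested on its own. In the females of the control populations 42.9% of all genes had a slope that passed, and in the males 26.2%. In females DnaJ-1 rose by 0.05 ± 0.01 on the log2 scale per generation, stv by 0.09 ± 0.02 and Hsp27 by 0.03 ± 0.01, while Hsp83 fell by 0.03 ± 0.01 (SE; adjusted p 9.355e-08, 1.992e-07, 1.714e-05 and 0.0002066, edgeR). In males DnaJ-1 rose by 0.05 ± 0.01 and stv by 0.05 ± 0.01 (SE; adjusted p 1.139e-05 and 0.0006659). The late high points and low points given above fall at this end of the series. The fit had generation only as a straight line, so swings shared by the libraries of a generation stayed in the spread. The SE and p-values thus count libraries as separate, although libraries of a generation or population share handling and history. As given above, DnaJ-1 did not rise steadily.

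Levels were then compared between schemes in generations 10 to 13, where selection had acted longest, with 8 libraries per population and sex. None of the members passed in any of the 6 comparisons, against these shares of all genes tested. For short minus control, 3.94% of all genes passed in females and 8.52% in males. For long minus control, 9.39% passed in females and 5.74% in males. For short minus long, 9.77% passed in females and 12.6% in males. At an unadjusted p under 0.05 there was 1 gene in females for short minus control, 1 in females for long minus control, and 0 in the other 4. Here too the share of all genes at that p is not given. The comparisons with controls share the control libraries.

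The first of these was Hsp26. Late female means were 53512 ± 7121 in short 1, 65656 ± 9768 in short 2, 50917 ± 5482 in long 1, 60318 ± 8570 in long 2, 48271 ± 6614 in control 1 and 56747 ± 6358 in control 2 (SD, n = 8 each). The short minus control difference was 0.18 ± 0.06 on the log2 scale (SE, adjusted p = 0.04325, edgeR). In every scheme the second population lay above the first, so that short 1 was below control 2.

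The other was Hsp67Ba. Late female means were 69.6 ± 12.6 in short 1, 75.0 ± 12.0 in short 2, 78.8 ± 14.6 in long 1, 54.6 ± 13.2 in long 2, 90.5 ± 22.995 in control 1 and 72.0 ± 18.3 in control 2 (SD, n = 8 each). Long minus control was -0.29 ± 0.10 on the log2 scale (SE, adjusted p = 0.01231, edgeR). It passed without long 1 (-0.56, adjusted p 0.0004991) and without control 2 (-0.45, adjusted p 0.0009694), so the call turned on which populations were kept. It was tested only because 4 control libraries exceeded the low-expression limit, the group in which it was higher, and with no filter the difference was -0.29 with an adjusted p of 0.01958. Over all its fits the difference ran between -0.56 and -0.02, with adjusted p up to 0.9111. The direction was not shared by the males, whose long minus control difference was 0.01 ± 0.06 (SE, adjusted p = 0.9188), and the difference between the sexes was not tested in these generations.

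For stv the late female means were 2712 ± 728 in short 1, 2420 ± 268 in short 2, 3174 ± 1162 in long 1, 1876 ± 525 in long 2, 3973 ± 1277 in control 1 and 2197 ± 1253 in control 2 (SD, n = 8 each). Long minus control was -0.26 ± 0.13 (SE, adjusted p = 0.08983), and without control 2 it was -0.70 (adjusted p 0.0001158). Over all its fits it changed sign and ran between -0.70 and 0.20, with adjusted p up to 0.7801. The 2 control populations differed more from each other than the schemes did. In every scheme the first population lay above the second, so the split was not particular to the controls.

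Male Hsp67Ba also showed a split within a scheme. The late means of the 2 short populations, 299 ± 63.5 in short 1 and 410 ± 56.8 in short 2, lay on either side of the other 4, which ran between 359 and 372 (SD, n = 8 each). Population held 18.1% of the variation of this gene in males, the highest population share of any of the 8 genes in males, where the median gene had 8.91%. For Hsp83, DnaJ-1 and Hsp27 the widest late difference between schemes was -0.16 ± 0.09 on the log2 scale, for Hsp27 in males, long minus control (SE, adjusted p = 0.2153).

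The other chaperone genes of the lists were tested in the same comparisons. For the added slopes, 1 of 36 passed in females, Hsc70Cb, an Hsp110-type partner of Hsp70 (adjusted p 0.000362), and 1 of 38 in males, Gp93, the Hsp90 of the endoplasmic reticulum (adjusted p 4.25e-06), where 9.92% and 5.89% of all genes did. For late short minus control, 0 of 30 passed in females and 0 of 38 in males, against 3.94% and 8.52% of all genes. For late long minus control, 3 of 30 passed in females and 3 of 38 in males, shares close to the 9.39% and 5.74% of all genes.

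CG4461 and Hsromega were called in both sexes. CG4461 (FBgn0035982, 9375430 to 9376293, plus strand), a small heat shock gene that lies between Hsp22 and Hsp26 in the 67B cluster, was lower in long populations than in controls, with log2 differences of -0.70 ± 0.09 in females and -0.53 ± 0.07 in males (SE, adjusted p 1.945e-07 and 7.039e-08, edgeR). Hsromega, a heat-inducible noncoding RNA gene, had log2 differences of -0.44 ± 0.08 in females and -0.21 ± 0.04 in males (SE, adjusted p 9.172e-05 and 0.000302). In females Hsc70Cb was higher, by 0.18 ± 0.04 (SE, adjusted p 0.0009058). In males the count of Hsp67Bb, which overlaps Hsp22, was higher, by 0.40 ± 0.09 (SE, adjusted p 0.0005911). For late short minus long, 1 of 30 passed in females and 2 of 38 in males, where 9.77% and 12.6% of all genes did. CG4461 was higher in short populations, by 0.51 ± 0.09 in females and 0.36 ± 0.07 in males (SE, adjusted p 3.71e-05 and 3.97e-05), and Hsp67Bb in males had a difference of -0.48 ± 0.09 (SE, adjusted p 1.952e-05). These late differences of the listed genes were fitted once, with no population left out.

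Across generations 36 of 36 listed genes passed in females and 36 of 38 in males, where 92.5% and 86.3% of all genes did. In females 4 of them, Hsp60B, Hsp60C, Hsp60D and Hsc70-2, exceeded the low-expression limit only in the generation 2 control 2 library that carried male RNA, at 697, 1021, 187 and 364, against at most 35.2, 61.6, 10.1 and 81.1 in the other females. Their generation calls rest on that library. With it left out, 32 of 32 listed genes passed in females, where 92.2% of all genes did. Of these, Hsp70Bbb exceeded the limit in only 1 female library, at 148 against a median of 1.85. It was thus tested through the library in which it was highest.

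The 2 pools of one population, sex and generation show how far a value repeats. Hsp23 repeated least. Its SD between pools was 0.54 in females and 0.52 in males on the log2(normalized count + 1) scale, where the median gene had 0.14 in females and 0.22 in males. Without the pairs that hold one of the 4 libraries the SD was 0.55 in females and 0.49 in males, where the median gene had 0.13 in both sexes.

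More than a 2-fold gap between pools was found for Hsp23 in 16 of 78 female pairs and 13 of 78 male pairs, against a median gene with 0 in females and 1 in males. The widest female pair, short 1 in generation 7, had 1594 and 365. The widest male pair, long 1 in generation 13, had 10207 and 2018. In that male pair the same pool was also high for Hsp26 (11671 against 3669), Hsp83 (65972 against 39782), DnaJ-1 (13545 against 7404) and stv (12581 against 5607). In the female pair of short 1 the same pool was also high for stv (2320 against 1545) and Hsp67Bc (37.5 against 19.6), but not for Hsp26 (45768 against 46019) or Hsp27 (22280 against 22701). By contrast, Hsp83 had a female SD between pools of 0.09, and its widest female pair, control 2 in generation 11, had 159216 and 125472.

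**Figure D3:**
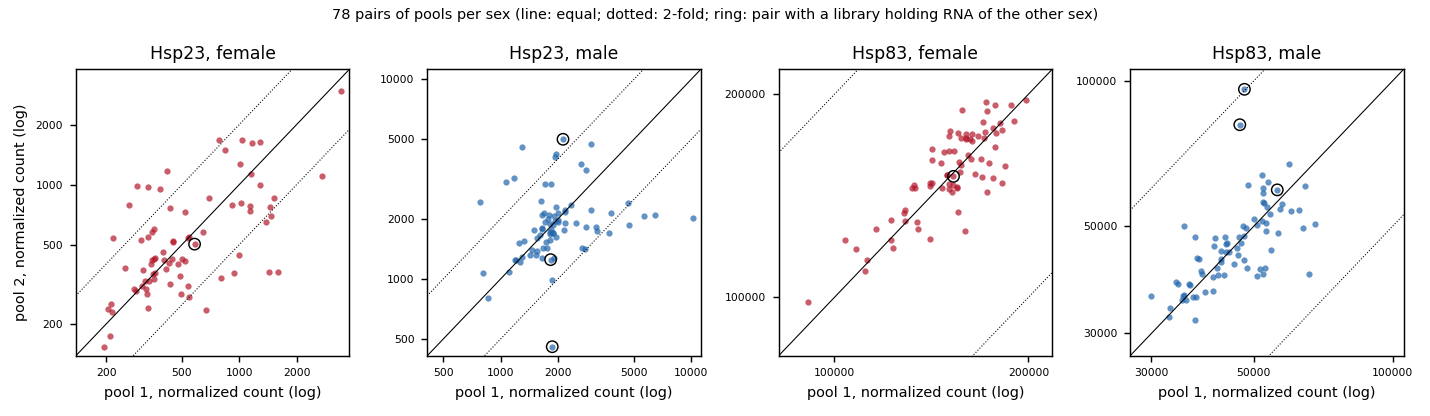
Normalized read count of pool 1 (x axis) against pool 2 (y axis) for the 78 pairs of each sex, for Hsp23 and Hsp83, on log axes; dotted lines mark a 2-fold gap and rings the pairs with a library that carries RNA of the other sex. Hsp23 pairs scatter across both lines, with 16 female and 13 male pairs outside them, while Hsp83 pairs stay inside in females and in all but 1 pair in males.

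Likeness to other genes was measured by Pearson's r of log2(normalized count + 1) over all libraries of a sex, as a description, since these libraries share generations and populations. The gene closest to Hsp23 was the inducible Hsp68 in both sexes, with r = 0.82 in females and r = 0.73 in males. It was followed in females by Hsp70Ab (r = 0.82) and Hsp70Bb (r = 0.80), and in males by the gustatory receptor gene Gr63a (r = 0.70) and Hsp70Bbb (r = 0.69). The Hsp70 genes are near-identical copies whose unique reads are split between them, so their own values are uncertain. Hsp67Bc in males was also closest to Hsp68 (r = 0.69), but without the 4 libraries Hsp68 was at r = 0.62 and Gr63a at r = 0.65.

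The other genes had different neighbours. The closest to stv was CG32982 in females (r = 0.93) and in males (r = 0.89). DnaJ-1 was closest to nmo, the nemo kinase gene, in females (r = 0.94) and to the J protein gene Droj2 in males (r = 0.88). Hsp83 was closest to CG15100 in females (r = 0.93) and to CG5290 in males (r = 0.82), where CG1416, an Aha1-type activator of Hsp90, came next (r = 0.82). Hsp27 was closest to CG5808 in females (r = 0.92), and its closest male gene, CG3679 (r = 0.85), fell to r = 0.64 without the libraries with female RNA. Male Hsp26 was closest to Corp, with r = 0.78, or 0.59 without those libraries. Female Hsp26 was closest to CG7427 (r = 0.83), and Hsp67Ba to the Shaker channel gene Sh in females (r = 0.57) and to CG10186 in males (r = 0.76). Without those libraries CG10186 was at r = 0.66 and Gycalpha99B, a subunit of soluble guanylate cyclase, at r = 0.67.

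Among the genes of the set, the relation between a pair depended on whether it was read across generations or between the 2 pools of a pair. Hsp83 and DnaJ-1 had r = -0.87 across the 13 generation means in females, but r = 0.74 for the difference between pools over 77 pairs. DnaJ-1 and stv had r = 0.89 across generation means in females, but r = -0.10 between pools. These values leave out the 4 libraries with RNA of the other sex. In males, Hsp83 and DnaJ-1 had r = -0.68 across generation means and 0.82 between pools (75 pairs), or -0.73 and 0.82 with all libraries. DnaJ-1 and stv in males had 0.92 and 0.74, or 0.89 and 0.41 with all libraries. Hsp27 and Hsp83 had r = -0.81 across generation means and r = 0.67 between pools in females. Generation means of 13 points share the handling of each generation, and pools of a pair share population and generation but not the flies.

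Hsp26 and Hsp27, both ovarian genes, went together between female pools (r = 0.85, 77 pairs). In males without the 4 libraries, Hsp23 went with Hsp26 (r = 0.91), Hsp27 (r = 0.81), Hsp67Bc (r = 0.76), DnaJ-1 (r = 0.75) and Hsp83 (r = 0.73) over 75 pairs. Over all 78 male pairs these were 0.33 with Hsp26, 0.12 with Hsp27, 0.79 with Hsp67Bc, 0.42 with DnaJ-1 and 0.37 with Hsp83, so that only the relation to Hsp67Bc was as close with those libraries kept. Marker sums moved with some generation means. Over the 13 female generation means, the summed level of the ovary and fat body genes had r = -0.84 with Hsp23 and r = -0.75 with Hsp26, and their part in the generation differences was not tested.

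**Figure D4:**
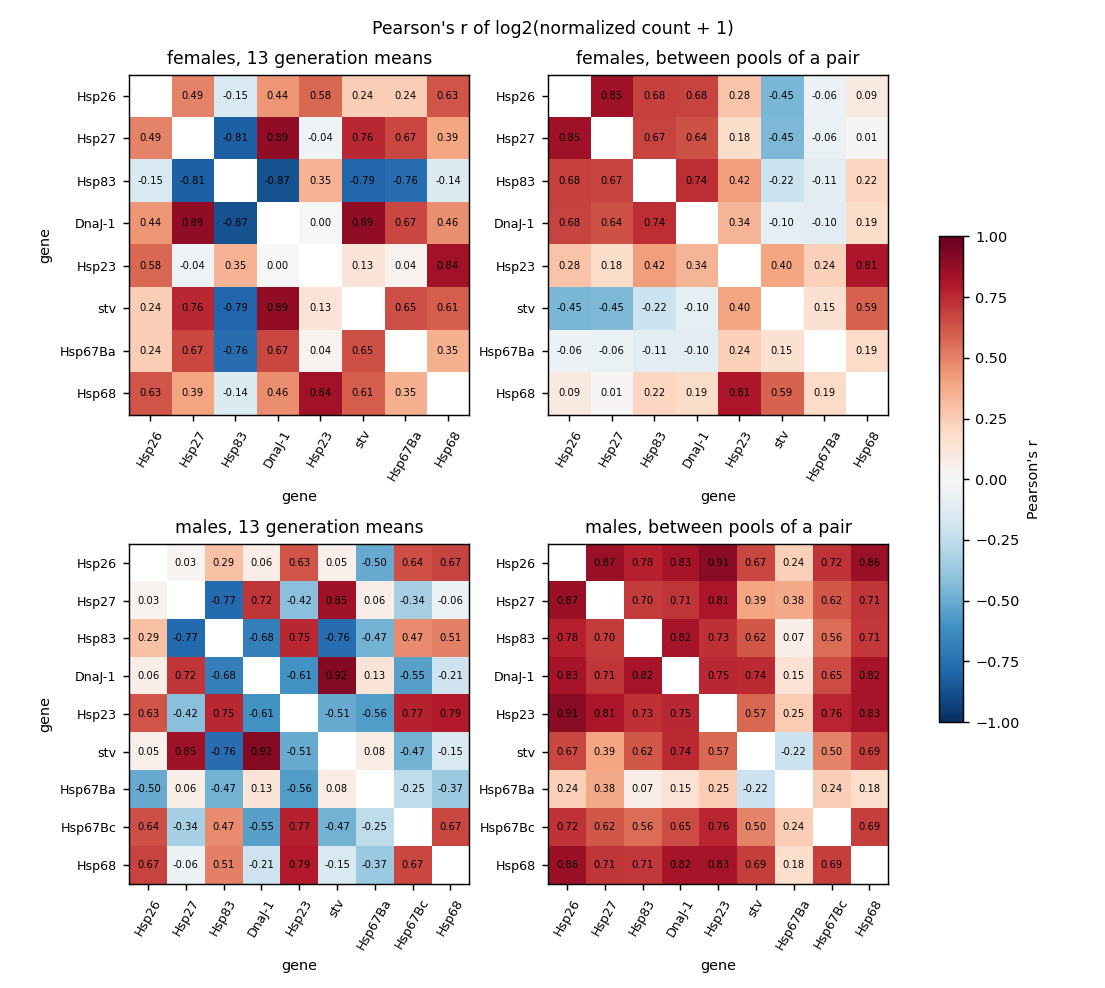
Pearson's r between pairs of the genes and Hsp68, across 13 generation means (one panel per sex) and for the difference between the 2 pools of a pair (77 female and 75 male pairs), without the 4 libraries that carry RNA of the other sex. Hsp83 and DnaJ-1 are negative across generations and positive between pools in both sexes, and Hsp23 is positive with Hsp68 in each panel.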

How the data were processed

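PolyA RNA of whole-fly pools was sequenced from stranded libraries. According to the labels and the study's methods, the authors used CASAVA 1.8.2, FastQC, STAR against a FlyBase release 6 annotation and HTSeq on uniquely mapped reads. Raw read counts per gene were deposited for 17478 genes, and the authors divided them by DESeq size factors to give the deposited normalized counts, a signal with no further unit, for 13212 genes. Size factors were recovered from these files as raw over normalized count.

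Raw counts were tested with edgeR 4.0.16 (quasi-likelihood, R 4.3.3) using those size factors. Genes above the study's low-expression limit for the sex in at least 1 library were tested, and an adjusted p (Benjamini-Hochberg over all genes tested) under 0.001 was called. Designs had population as a covariate. Generation entered as a factor, except in the slope fits, where it was a straight line and swings shared by all populations stayed in the spread. DESeq2 1.42.0, limma 3.58.1 (populations as replicates), TMM factors, no filter, other generations and left-out libraries or populations were tried as alternatives. The limma fits used 1 value per population, or 1 mean per population and generation for the generation swings and their sex difference. Of the alternatives, leaving out the short 1 male library with yolk protein RNA, and the refits of the listed genes, were added after the data were seen. Scripts were tested on simulated data. Levels, pool spread and correlations used log2(normalized count + 1) and are descriptions. Figures were drawn with matplotlib 3.10.9. Each library held at least 31539064 counted reads, and counting error matters most for Hsp67Ba and Hsp67Bc in females.

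Groups came from the labels, and a pool's number from its title. In 35 libraries another label gave a different pool number, and the 29 labelled 3 or 4 were left out in an alternative. The genes, the lists of related genes and the comparisons were chosen with earlier results of these data known. All 9 genes of the set are named, with the 3 most similar genes each where they serve a comparison and, from the lists, the genes that passed or the 2 with the smallest p where named. Generation 1 was not analysed here. No sequence of these genes was used here.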

Additional observations from a re-analysis of the deposited data

Results flagged for a closer look

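In the 96 sets of 8 late libraries (generations 10 to 13 of one gene, population and sex), 9 held a highest library whose gap to the next exceeded 0.526 of the whole range. The lowest library was checked in the same way and gave 0 sets. For normally distributed values chance gives such a gap, at either end, in about 1 of 20 sets. The gaps were taken on normalized counts without a log scale, so that rate need not hold for them. Sets of different genes also share libraries, and whether 9 sets exceed chance was not tested.

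In pool 1 of generation 13 long 1 males, Hsp23 was 10207, where the next of the 8 libraries had 3218, and Hsp83 was 65972, where the next had 50719. In pool 1 of generation 13 short 2 males, Hsp23 was 4693 (next 2430) and Hsp26 was 8545 (next 5268). In pool 2 of generation 12 control 2 females, Hsp23 was 1500 (next 838), stv was 4997 (next 2591) and Hsp67Bc was 71.5 (next 39.99). The remaining sets were Hsp23 in pool 2 of generation 13 long 2 females, at 978 (next 542), and stv in pool 2 of generation 12 long 2 males, at 13410 (next 8454). Of the 9, Hsp23 accounted for 4, and 7 came from 3 pools in which more than one gene of the set was high. Their cause was not tested.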

How the results depend on the processing

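Of 176 recomputed counts of called genes, 170 stayed within 1.5 times the reported count and 6 did not. Without control 2, the added slopes in females gave 1 gene and late long minus control in females gave 2, and without long 1 that late comparison gave 1, as did the sex difference of the generation swings. With TMM factors the male generation swings gave 8, and with populations as replicates the female swings gave 4. The cause was not tested. Over the fits that leave out 1 population, counts ran from 6 to 7 for generation swings in females and from 5 to 6 in males, from 0 to 2 for late long minus control in females, from 0 to 1 for the female added slopes and for the sex difference of the swings, and stayed at 8 for sex and 0 elsewhere. Of 1342 fits of single genes, 1318 stayed on the same side of the threshold, 10 lost the call, 14 gained it and 0 called ones reversed.

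Populations of the 3 schemes share the replicate numbers 1 and 2, and the labels name no animal, litter, batch or day behind a number. Deviations of same-numbered populations correlated at 0.05 (short with long), 0.42 (short with control) and 0.43 (long with control) over genes in females, and at 0.30, 0.49 and 0.46 in males. With the number as a replicate block the counts were 7 and 5 for the generation swings of females and males, 8 for sex and 0 for every other comparison, the same as without it. Leaving out the 4 libraries with RNA of the other sex does not apply to generations 10 to 13, which hold none of them. Leaving out 5, with the short 1 male library added after the data were seen, gave 7 genes for the male swings, as without the 4. A pseudocount of 10 left the pool spread of Hsp23 at 0.54 in females and 0.52 in males.

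The 6 populations are the units of selection, 2 per scheme, so a late difference between schemes cannot be separated from drift of a single population. Depth did not limit the 6 abundant genes, but Hsp67Bc in females was too low to test.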
